A study of Mus musculus with 23 samples.

Results

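Histone genes were followed in the hippocampus, cortex and cerebellum of *Bhlhe40* knockout (KO) and wild type (WT) mice. Members were chosen by a rule on names. It took every annotated gene symbol that begins as a linker histone (H1f) or a core histone H2A, H2B, H3 or H4 gene. No measured value is part of this rule, but it was set with earlier results of these data known. The rule found 60 of the 16593 gene symbols on the array, measured by 67 probes: 9 H1, 17 H2A, 12 H2B, 11 H3 and 11 H4 genes. A further 17 genes of the RefSeq gene table fit the same name pattern and were not analysed here, among them *H1f0*, *H2az2* and *H2bc21*.

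The KO groups held 4 arrays of hippocampus, 4 of cortex and 4 of cerebellum, and the WT groups held 4, 4 and 3. All mice were males on a C57BL/6 background, 3 to 5 months old and fasted overnight, and the hippocampus (from 1 hemisphere), cortex and cerebellum of a mouse each gave an array. KO mice lack *Bhlhe40*, which encodes a basic helix-loop-helix repressor, in the whole body and from conception, and WT mice carried no deletion. A WT cerebellum sample that the study set aside was not analysed here. Replicates 2 and 3 of WT cerebellum came from WT mice 3 and 4, and in the other groups replicate and mouse numbers are the same.

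Histones package DNA. An octamer of H2A, H2B, H3 and H4 forms the core of the nucleosome, and H1 binds the linker DNA between nucleosomes. Replication-dependent histone genes lie in clusters, are transcribed mostly in S phase, and yield mRNAs that end in a stem-loop and usually carry no poly(A) tail. Replication-independent variant genes, such as those for H2A.Z and H3.3, give polyadenylated mRNAs and supply histones to cells that no longer divide, neurons included. The gene for H2A.X was counted with these variants here. The labelling of these samples began with an oligo-dT primer, so a signal from a replication-dependent gene reflects transcripts that the primer could reach. Of the 60 genes, 44 lie on chromosome 13, 8 on chromosome 3 and 4 on chromosome 6, where *Bhlhe40* also lies. Many core histone genes are near-identical copies. Probe sequences were not used here, so transcripts of such copies cannot be told apart, and a value given for 1 gene may include its copies.

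The deletion was seen on every KO array. The *Bhlhe40* probe read 7.94 to 8.47 on the KO and 11.84 to 11.94 on the WT hippocampus arrays, on the normalized log2 signal scale used throughout. It fell by 3.70 in hippocampus, fell by 4.15 in cortex and fell by 3.38 in cerebellum. Between 50.9% and 55.5% of the probes of an array were detected at a detection p under 0.05, and 2 arrays of a group correlated at 0.9929 to 0.9967 over all probes. Of the tissue markers on the array, 6 of 7 for hippocampus, 5 of 6 for cortex and 8 of 9 for cerebellum were highest in the WT arrays of their own tissue.

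Promoters are shown for members on which the comparisons turn: 4 H2B genes that were higher in KO hippocampus and cerebellum, *H2bc18*, an H2B gene that did not pass, the linker variant *H1f10*, and *H3f3b*, the member that was lower in KO cerebellum. Each runs from 250 bases before the RefSeq start to 50 bases after it, 5′ to 3′ on the strand of the gene in build GRCm38.p6, with octamers (ATTTGCAT, or its reverse complement) and CCAAT boxes (or their reverse complement) in capitals.
*H2bc11* (chr13:22042948-22043247, plus strand): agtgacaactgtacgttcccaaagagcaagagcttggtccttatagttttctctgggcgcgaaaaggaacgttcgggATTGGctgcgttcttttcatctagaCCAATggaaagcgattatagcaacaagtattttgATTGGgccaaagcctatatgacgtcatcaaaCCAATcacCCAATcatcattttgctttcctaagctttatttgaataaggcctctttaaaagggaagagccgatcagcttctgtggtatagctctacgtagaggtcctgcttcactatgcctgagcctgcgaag
*H2bc7* (chr13:23574158-23574457, minus strand): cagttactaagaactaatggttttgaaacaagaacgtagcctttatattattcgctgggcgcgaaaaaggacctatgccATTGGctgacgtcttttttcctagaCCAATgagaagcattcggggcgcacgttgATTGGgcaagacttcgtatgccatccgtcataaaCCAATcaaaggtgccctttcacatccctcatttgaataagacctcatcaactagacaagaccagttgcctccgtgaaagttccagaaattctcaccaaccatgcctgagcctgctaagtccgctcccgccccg
*H2bc9* (chr13:23543395-23543694, minus strand): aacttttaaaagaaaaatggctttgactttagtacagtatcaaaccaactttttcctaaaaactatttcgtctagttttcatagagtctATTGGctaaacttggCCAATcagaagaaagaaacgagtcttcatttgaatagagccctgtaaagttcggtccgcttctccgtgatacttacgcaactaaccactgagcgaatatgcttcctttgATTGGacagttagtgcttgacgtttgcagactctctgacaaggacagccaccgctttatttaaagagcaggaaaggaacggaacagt
*H2bc14* (chr13:21721794-21722093, plus strand): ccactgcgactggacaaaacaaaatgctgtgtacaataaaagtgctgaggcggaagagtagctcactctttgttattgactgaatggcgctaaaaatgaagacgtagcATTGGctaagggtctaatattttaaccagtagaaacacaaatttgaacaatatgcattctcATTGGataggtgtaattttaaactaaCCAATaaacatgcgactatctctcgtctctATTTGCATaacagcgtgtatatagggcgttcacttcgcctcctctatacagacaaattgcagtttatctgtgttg
*H2bc18* (chr3:96269450-96269749, plus strand): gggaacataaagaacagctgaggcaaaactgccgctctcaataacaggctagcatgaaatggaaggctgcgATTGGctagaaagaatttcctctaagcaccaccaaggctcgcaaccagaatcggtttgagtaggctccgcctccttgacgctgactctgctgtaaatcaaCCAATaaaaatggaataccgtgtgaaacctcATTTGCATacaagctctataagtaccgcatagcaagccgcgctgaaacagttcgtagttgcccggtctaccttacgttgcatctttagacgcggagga
*H1f10* (chr6:87981433-87981732, minus strand): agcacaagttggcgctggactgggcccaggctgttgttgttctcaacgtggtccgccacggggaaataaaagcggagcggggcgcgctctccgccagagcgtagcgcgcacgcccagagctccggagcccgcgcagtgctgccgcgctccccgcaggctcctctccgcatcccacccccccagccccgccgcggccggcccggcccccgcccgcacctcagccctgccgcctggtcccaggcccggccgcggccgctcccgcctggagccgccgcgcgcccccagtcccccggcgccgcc
*H3f3b* (chr11:116024455-116024754, minus strand): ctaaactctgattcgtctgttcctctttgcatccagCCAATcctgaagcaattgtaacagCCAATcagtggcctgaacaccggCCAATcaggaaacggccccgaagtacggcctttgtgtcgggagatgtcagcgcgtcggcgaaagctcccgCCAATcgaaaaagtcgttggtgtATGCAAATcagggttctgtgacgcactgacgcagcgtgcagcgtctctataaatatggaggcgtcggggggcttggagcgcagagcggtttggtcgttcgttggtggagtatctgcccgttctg

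The sequence table held promoters of 55 of the 60 members. It held none for *H2ax*, *H2bc4*, *H3c1*, *H3c7* and *H4c14*. The octamer ATTTGCAT, the motif bound by POU factors in H2B promoters, was present on either strand in 14 of these 55 genes (25.5%), against 1.74% of all 32851 promoters of the table. H2B genes held it in 7 of 11 promoters, H2A genes in 6 of 16, H3 genes in 1 of 9, and neither the 9 H1 nor the 10 H4 genes held it. All 6 H2A matches lay on the strand opposite to the gene. Windows of neighbours overlap, and 3 of these matches are the same bases as an H2B match (*H2ac1* with *H2bc1*, *H2ac8* with *H2bc8* and *H2ac12* with *H2bc12*), so the 14 genes hold 11 separate octamers. CCAAT was found in 45 of 55 genes (81.8%), against 37.4% of all promoters, and was present in every H2A, H2B and H3 promoter searched but in only 2 of 10 H4 promoters. TATAAA was found in 30 of 55 (54.5%), against 13.6%. Some CCAAT and TATAAA matches are also the same bases in the windows of neighbours. The only TATAAA of *H2bc7*, *H2bc12*, *H2bc15* and *H2ac8* is that of the neighbour, so these counts are of genes and not of separate motifs. The E-box CACGTG, a motif known to bind BHLHE40 protein, was found in 1 of 55 (1.82%), *H2az1*, against 7.15% of all promoters. These are letter matches in a short window and say nothing of binding. Both *H2bc14*, which was higher in KO mice, and *H2bc18*, which did not pass, hold the octamer, and the printed *H2bc7*, *H2bc9* and *H2bc11* promoters do not hold it in this exact spelling.

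Histone transcripts were detected for 38 of the 60 genes in at least 1 tissue, where detection means a detection p under 0.05 on at least 3 arrays of that tissue. Hippocampus had 37 detected genes, cortex 34 and cerebellum 35, with 33 genes in common to the 3 tissues. By family, 4 of 9 H1, 12 of 17 H2A, 9 of 12 H2B, 6 of 11 H3 and 7 of 11 H4 genes were detected somewhere. The other 22 genes, *H1f1*, *H1f4*, *H1f6*, *H1f7*, *H1f8*, *H2ac1*, *H2ac4*, *H2ac6*, *H2ac8*, *H2ac11*, *H2bc1*, *H2bc3*, *H2bc8*, *H3c1*, *H3c3*, *H3c7*, *H3c8*, *H3c10*, *H4c2*, *H4c3*, *H4c14* and *H4f16*, were below this limit in every tissue, and 19 of them were detected on no array. *H1f6*, *H1f7*, *H1f8*, *H2ac1* and *H2bc1*, whose products serve germ cells, are all among these 22. Most detected members were detected on every array of the tissue, 32 of 37 in hippocampus, 29 of 34 in cortex and 32 of 35 in cerebellum. In cerebellum, *H4c18* was detected on 3 KO arrays and on no WT array, so it entered the comparison only through the KO group, and *H4c12* was detected on 4 KO arrays and on 1 WT array.

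In KO hippocampus 10 histone genes were higher, most of which encode H2B. Of 37 members tested, KO mice had 10 higher and 0 lower by limma (adjusted p under 0.05), against 7.19% higher and 4.59% lower of all 9834 genes tested. The median KO minus WT difference was 0.21 on the log2 scale over the members and 0.01 over all genes. Every KO array lay above every WT array in 11 of 37 members, against 9.25% of all genes. H2B genes passed in 7 of 9 cases, H1 genes in 2 of 3, H4 genes in 1 of 7, and none of the 12 H2A or 6 H3 genes passed. In bulk tissue, a change in the number of cells of a type and a change in RNA per cell cannot be told apart.

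*H2bc9*, an H2B gene of the chromosome 13 cluster, had the smallest adjusted p among hippocampal members. It read 10.42, 10.47, 10.57 and 10.10 on the KO hippocampus arrays, against 9.90, 9.58, 9.78 and 9.46 on the WT arrays. No KO value reached down to a WT value, and the difference was 0.71 (standard error, SE, 0.11, limma adjusted p = 0.00296), or 1.64-fold.

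*H2bc11* read 10.84, 10.81, 11.04 and 10.52 in KO hippocampus, against 10.33, 10.05, 10.22 and 9.91 in WT hippocampus. The groups did not overlap, and the difference was 0.67 (SE 0.11, limma adjusted p = 0.0032). *H2bc7* read 10.75, 10.83, 11.21 and 10.67 in KO, against 10.48, 10.12, 10.24 and 10.14 in WT. It too was separated between the groups, by 0.62 (SE 0.11, limma adjusted p = 0.00573). *H2bc4* read 11.39, 11.17, 11.64 and 11.17 in KO, against 11.06, 10.73, 10.96 and 10.74 in WT. The groups did not overlap, with a difference of 0.47 (SE 0.10, limma adjusted p = 0.0121).

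For the next 3 H2B genes the groups lay side by side or overlapped. *H2bc14* read 10.11, 9.74, 10.14 and 9.68 in KO hippocampus, against 9.64, 9.22, 9.51 and 9.18 in WT, a difference of 0.53. *H2bc15* read 9.92, 9.73, 10.19 and 9.48 in KO, against 9.57, 9.22, 9.33 and 9.18 in WT, a difference of 0.50. *H2bc12* read 9.51, 9.49, 9.89 and 9.24 in KO, against 9.16, 8.98, 9.26 and 8.93 in WT, a difference of 0.45. KO replicate 3 was the highest array for all 3 genes, and KO replicate 4 was the lowest KO array and lay below the highest WT array for *H2bc15* and *H2bc12*. Of the H2B genes that did not pass, *H2bc6* differed by 0.14 and *H2bc18* by -0.00.

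**Figure D1:**
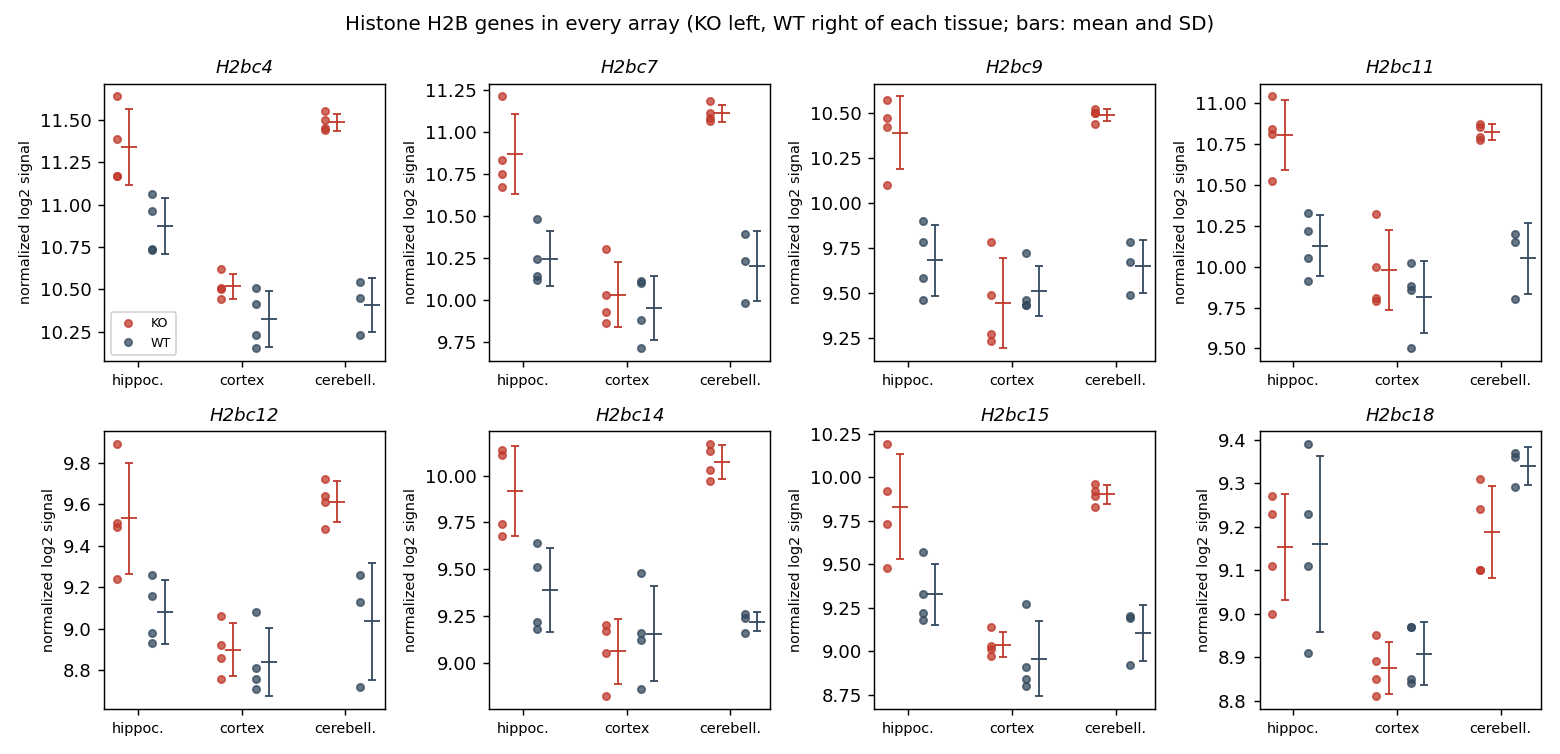
Normalized log2 signal (vertical axis) of 8 H2B genes on every array, by tissue, with KO points left of WT points and bars for the mean and SD (n = 4, and 3 in WT cerebellum). KO points lie above WT points in cerebellum for every gene shown except *H2bc18*, and the groups overlap in cortex for all 8.

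Among linker histones, *H1f10* and *H1f2* were higher in KO hippocampus. *H1f10*, the replication-independent H1.10 gene, read 10.04, 10.26, 10.26 and 9.98 in KO, against 9.82, 9.48, 9.78 and 9.32 in WT. All KO arrays lay above the WT arrays, by 0.53 on average (SE 0.11, limma adjusted p = 0.01). A second probe of *H1f10* gave 0.43 (adjusted p = 0.0129 over all detected probes). *H1f2* read 11.07, 11.47, 11.40 and 10.85 in KO, against 10.81, 10.67, 10.76 and 10.48 in WT, a difference of 0.52 with no overlap (SE 0.12, limma adjusted p = 0.0126). *H1f5*, at 0.08, did not pass.

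*H4c8* was the H4 gene that passed in hippocampus, at 8.37, 8.12, 8.64 and 8.13 in KO, against 8.13, 7.83, 7.98 and 7.95 in WT. The groups overlapped slightly, and its difference of 0.34 was close to the threshold (adjusted p = 0.0476). *H4c11* read 8.06, 8.32, 8.41 and 7.71 in KO hippocampus, against 7.76, 7.99, 7.82 and 7.82 in WT, where KO replicate 4 was the lowest array of all, and its difference of 0.28 did not pass. The other H4 genes differed by 0.21 (*H4c6* and *H4c9*), 0.10 (*H4c12*), 0.08 (*H4c18*) and 0.07 (*H4c4*). All 12 H2A genes had a higher KO than WT mean without passing. Their differences were 0.27 for *H2ax* and *H2ac15*, 0.26 for *H2ac7*, 0.25 for *H2ac21* and *H2aj*, 0.21 for *H2ac20*, 0.19 for *H2ac18*, 0.18 for *H2ac12*, 0.17 for *H2az1*, 0.16 for *H2ac10*, 0.15 for *H2ac24* and 0.06 for *H2ac22*. The H3 genes differed by 0.24 (*H3f3a*), 0.18 (*H3c6*), 0.12 (*H3c4*), 0.11 (*H3c14*), 0.05 (*H3c13*) and -0.04 (*H3f3b*).

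The hippocampal count rested on few arrays. It was 4 of 37 without WT replicate 4 and 6 of 37 without KO replicate 3, and a test that did not share the spread among genes called none. The count over all genes fell as well, from 707 of 9834 higher to 204 of 9749, 268 of 9727 and 6 of 9834 in the same settings. Markers of choroid plexus, the epithelium that makes cerebrospinal fluid, moved with the groups: 8 of the 11 listed markers were tested and all 8 were higher in KO hippocampus, among them *Clic6*, *Aqp1* and *Folr1* at 2.10, 1.64 and 1.42. Their summed level was 15.38, 15.46, 15.76 and 14.72 on the KO arrays, against 13.92, 11.26, 15.54 and 12.17 on the WT arrays. The groups overlapped in this level through WT replicate 3. With the summed level as a covariate, a setting added after the data were seen, 0 of 37 members passed in either direction. Of all 9834 genes, only 33 were higher and 34 lower in that fit. At an unadjusted p under 0.05, 9 members were higher and 0 lower, but the share of all genes at that cutoff was not counted. The member median was 0.14, and *H2bc9*, *H2bc11* and *H2bc7* differed by 0.51, 0.49 and 0.48. Of 5 endothelial markers tested, *Ly6c1* (0.35) and *Flt1* (0.28) were higher, and the list median was -0.14. Of 5 neuronal markers, *Map2* (-0.39) and *Syt1* (-0.34) were lower, with a list median of -0.16. Of 7 meningeal markers *Igf2* was higher (0.79), and of 7 microglial markers *Aif1* was higher (0.30) and *Cx3cr1* lower (-0.33). No marker of blood, astrocytes or oligodendrocytes passed, and 1 of the 7 hippocampal markers was higher. The part of these cell types in the result was not tested.

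No histone gene passed the test between KO and WT cortex. Of 34 members, 0 were higher and 0 were lower by limma, where 0.113% and 0.0926% of 9720 genes passed. At an unadjusted p under 0.05, 2 members were higher and 3 lower, but the share of all genes at that cutoff was not counted. The unmoderated test called 0 members. With any 1 cortex array left out, the counts stayed at 0. No member had every KO array above every WT array, against 1.75% of all genes. The member median was 0.01, against -0.00 over all genes. All 6 replication-independent variants had a KO mean below the WT mean. Their differences were -0.38 (*H1f10*), -0.31 (*H2ax*), -0.26 (*H2aj*), -0.14 (*H2az1*), -0.09 (*H3f3b*) and -0.07 (*H3f3a*), and the smallest adjusted p among them was 0.426 (*H2ax*).

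The variant with the widest gap in cortex, *H1f10*, read 9.21, 9.04, 9.51 and 9.35 on KO cortex arrays, against 9.64, 10.21, 9.42 and 9.36 on WT cortex arrays. WT replicate 2 was the highest, and WT replicates 3 and 4 lay within the KO range. *H2ax* read 9.35, 9.58, 9.66 and 9.43 in KO, against 9.91, 10.11, 9.58 and 9.65 in WT, with overlap. *H2aj* read 8.59, 8.69, 9.09 and 8.59 in KO, against 8.93, 9.11, 9.01 and 8.95 in WT, where a single KO array lay within the WT range.

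H2B genes showed no separation in cortex. *H2bc9* read 9.78, 9.27, 9.49 and 9.23 in KO, against 9.43, 9.72, 9.46 and 9.43 in WT, a difference of -0.07. *H2bc7* read 10.30, 9.93, 10.03 and 9.86 in KO, against 9.88, 10.11, 9.71 and 10.10 in WT, a difference of 0.08. *H2bc11* read 10.32, 9.79, 10.00 and 9.81 in KO, against 9.86, 10.02, 9.50 and 9.88 in WT, a difference of 0.16. KO replicate 1 was the highest of all cortex arrays for these 3 genes. *H2bc4* read 10.62, 10.51, 10.44 and 10.50 in KO, against 10.23, 10.51, 10.15 and 10.41 in WT, a difference of 0.19. *H2bc14* read 9.20, 9.17, 8.82 and 9.05 in KO, against 9.12, 9.48, 8.86 and 9.16 in WT, a difference of -0.10. *H2bc15* read 9.14, 8.97, 9.03 and 9.01 in KO, against 8.84, 9.27, 8.80 and 8.91 in WT, a difference of 0.08. For both genes WT replicate 2 was the highest cortex array, and the groups overlapped. The other H2B genes differed by 0.14 (*H2bc6*), 0.06 (*H2bc12*) and -0.03 (*H2bc18*).

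Replication-dependent genes of the other families lay between -0.08 and 0.21 in cortex. The highest was *H3c14* at 0.21 (adjusted p = 0.527), and its second probe gave -0.01. H2A genes lay at 0.14 (*H2ac22*), 0.10 (*H2ac10*), 0.08 (*H2ac24*), 0.04 (*H2ac12* and *H2ac20*), -0.05 (*H2ac15* and *H2ac18*) and -0.08 (*H2ac7*). *H4c11* read 7.82, 7.74, 7.62 and 7.73 in KO cortex, against 7.49, 7.58, 7.78 and 7.45 in WT, a difference of 0.15. *H4c8* read 7.99, 7.77, 7.85 and 7.73 in KO, against 7.86, 7.74, 7.73 and 7.95 in WT, a difference of 0.02. Both overlapped between the groups. *H4c9* lay at 0.00 and *H4c6* at -0.01, H1 genes at 0.06 (*H1f2*), -0.02 (*H1f5*) and -0.03 (*H1f3*), and the remaining H3 genes at 0.05 (*H3c4*), 0.03 (*H3c13*) and -0.02 (*H3c6*). Choroid plexus markers did not pass in cortex in any of the 3 tested cases.

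In the cerebellum, members of all 5 families were higher in KO mice. Of 35 members, 26 were higher and 1 was lower by limma, against 20.2% higher and 16.6% lower of all 9449 genes. The member median was 0.43, against 0.01 over all genes. Every KO array lay above every WT array in 27 of 35 members, against 21.7% of all genes. By family, 2 of 3 H1, 9 of 11 H2A, 7 of 9 H2B, 2 of 6 H3 and all 6 H4 genes were higher. Of the 33 members detected on at least 2 arrays of each group, which leaves out *H4c12* and *H4c18*, 24 were higher and 1 was lower, and 4 of the 6 H4 genes remain. All 10 members that were higher in KO hippocampus were also higher in KO cerebellum, where 26 of 35 members were higher. The like share over all genes was not counted. The cerebellum arrays came from mice that also gave hippocampus arrays, so the tissues are not independent.

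*H2bc4* had the smallest adjusted p, at 11.45, 11.50, 11.55 and 11.44 in KO cerebellum, against 10.54, 10.23 and 10.45 in WT cerebellum. The groups were far apart, and the difference was 1.08 (SE 0.09, limma adjusted p = 2.87e-07), or 2.11-fold. A second *H2bc4* probe was detected on no array of any tissue and was not tested. *H2bc7* read 11.18, 11.08, 11.11 and 11.06 in KO, against 10.39, 9.98 and 10.23 in WT, a difference of 0.91 (SE 0.10). *H2bc9* read 10.50, 10.44, 10.52 and 10.50 in KO, against 9.78, 9.49 and 9.67 in WT, a difference of 0.84 (SE 0.10). For each of these H2B genes the KO arrays were tightly grouped and clear of the WT arrays.

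*H2bc14* read 10.13, 10.17, 9.97 and 10.03 in KO cerebellum, against 9.24, 9.16 and 9.26 in WT, a difference of 0.85. *H2bc15* read 9.96, 9.89, 9.92 and 9.83 in KO, against 9.20, 8.92 and 9.19 in WT, a difference of 0.80. *H2bc11* read 10.87, 10.79, 10.85 and 10.77 in KO, against 10.20, 9.80 and 10.15 in WT, a difference of 0.77. The groups were apart in all 3, and WT replicate 2 was the lowest WT array in each. *H2bc12* differed by 0.57, with no overlap, while *H2bc6* at 0.01 and *H2bc18* at -0.15 did not pass.

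*H4c8*, which encodes H4, read 9.40, 9.02, 9.05 and 9.13 in KO cerebellum, against 8.22, 7.96 and 8.12 in WT. The difference of 1.05 (SE 0.12, limma adjusted p = 2.92e-06) compares with 0.34 in hippocampus. *H4c11* read 8.40, 8.38, 8.26 and 8.39 in KO, against 7.76, 7.76 and 7.91 in WT, a difference of 0.55 with no overlap. The remaining H4 genes were higher by 0.51 (*H4c9*), 0.35 (*H4c12*), 0.27 (*H4c18*) and 0.23 (*H4c6*). *H4c18* owes its test to the KO arrays, as given above.

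H2A genes were higher by 0.67 (*H2ax*), 0.61 (*H2ac18*), 0.55 (*H2ac24*), 0.53 (*H2ac7*), 0.51 (*H2ac20*), 0.49 (*H2ac12*), 0.41 (*H2ac15*), 0.40 (*H2ac10*) and 0.36 (*H2az1*). *H2aj* at 0.25 and *H2ac22* at 0.17 did not pass. *H2ac18* read 8.39, 8.15, 8.31 and 8.21 in KO cerebellum, against 7.72, 7.64 and 7.62 in WT. In KO hippocampus the same gene read 8.13, 7.86, 8.42 and 8.14, against 7.99, 7.85, 7.96 and 7.98 in WT, with overlap, and in cortex 7.80, 7.54, 7.49 and 7.74, against 7.69, 7.89, 7.62 and 7.58. Among the H1 genes of the cerebellum, *H1f2* was higher by 0.43 and *H1f5* differed by 0.11.

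Of the 6 variants, 4 were higher in KO cerebellum, 1 was lower and 1 did not pass. *H1f10* read 9.73, 9.39, 9.67 and 9.59 in KO, against 8.83, 8.31 and 8.40 in WT, a difference of 1.08 (SE 0.13, limma adjusted p = 6.23e-06), and its second probe gave 0.67. *H2ax*, whose product marks DNA breaks once phosphorylated, read 9.90, 9.91, 9.77 and 9.88 in KO, against 9.53, 8.84 and 9.21 in WT. *H2az1*, which encodes H2A.Z, read 12.23, 12.26, 12.28 and 12.43 in KO, against 11.87, 11.86 and 12.08 in WT. All 3 were clear of the WT arrays. *H2aj* read 9.11, 9.17, 9.03 and 8.96 in KO, against 9.11, 8.83 and 8.51 in WT, with overlap.

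*H3f3a* and *H3f3b*, which encode the same H3.3 protein, moved apart in KO cerebellum. *H3f3a* read 12.16, 12.21, 12.38 and 12.36 in KO, against 12.03, 11.85 and 12.05 in WT, a rise of 0.30 (SE 0.10, limma adjusted p = 0.019). A second *H3f3a* probe gave 0.13 and did not pass. *H3f3b* read 13.42, 13.67, 13.77 and 13.87 in KO, against 13.84, 14.20 and 14.22 in WT. It fell by 0.40 (SE 0.14, limma adjusted p = 0.0291), and KO replicate 4 lay just above the lowest WT array. This call was lost when any of KO replicates 1 and 2 and WT replicates 2 and 3 was left out. Other H3 genes were higher by 0.32 (*H3c6*) or did not pass, at 0.20 (*H3c4*), 0.03 (*H3c13*) and -0.11 (*H3c14*).

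**Figure D2:**
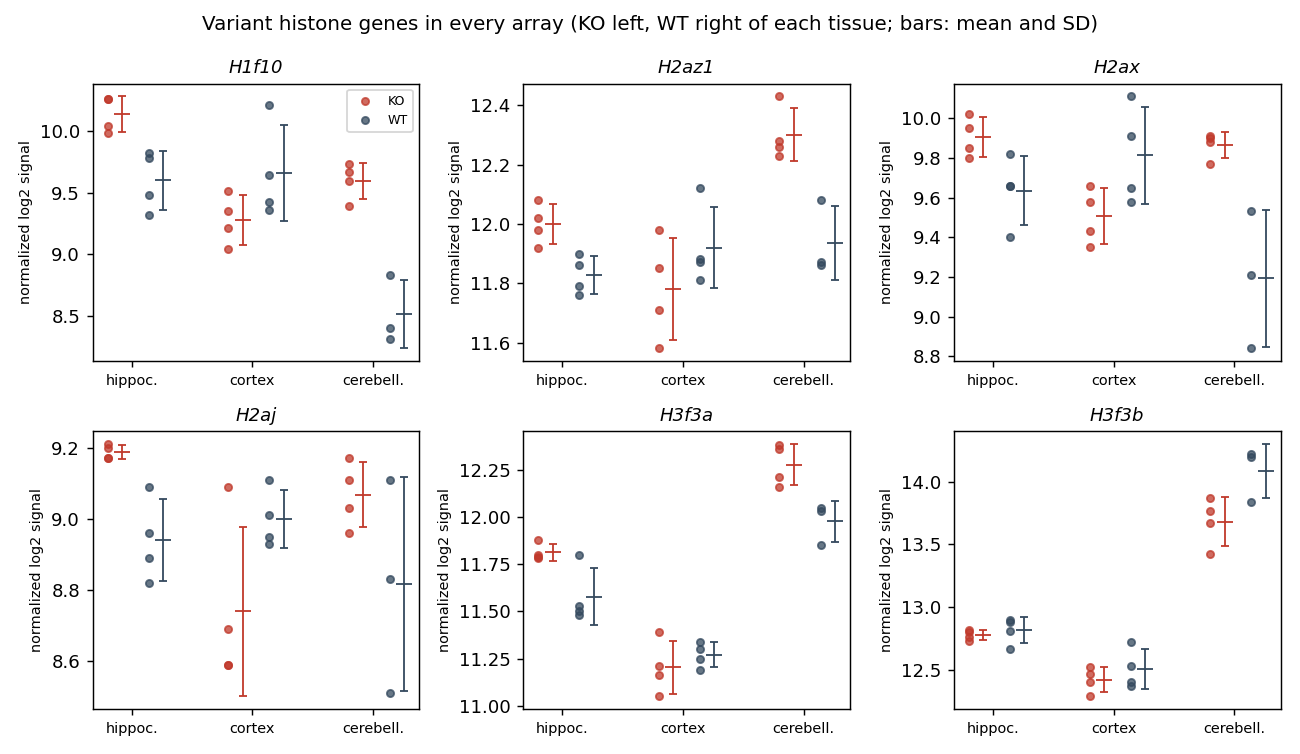
Normalized log2 signal (vertical axis) of the 6 replication-independent variants on every array, by tissue, with KO points left of WT points and bars for the mean and SD (n = 4, and 3 in WT cerebellum). In cerebellum, KO points lie above all WT points for *H1f10*, *H2az1*, *H2ax* and *H3f3a*, and the *H3f3b* KO mean (13.68) lies below its WT mean (14.09).

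In hippocampus and cortex the H3.3 pair did not pass. *H3f3a* read 11.78, 11.80, 11.79 and 11.88 in KO hippocampus, against 11.53, 11.80, 11.50 and 11.48 in WT, where WT replicate 2 alone matched the KO values. *H3f3b* read 12.82, 12.73, 12.76 and 12.80 in KO hippocampus, against 12.81, 12.90, 12.88 and 12.67 in WT. *H2az1* read 11.98, 12.02, 12.08 and 11.92 in KO hippocampus, against 11.90, 11.79, 11.76 and 11.86 in WT, a separation of 0.17 (adjusted p = 0.114). *H2aj* was also separated in hippocampus without passing, at 9.17, 9.21, 9.20 and 9.17 in KO, against 8.89, 8.96, 8.82 and 9.09 in WT. *H2ax* read 9.85, 9.95, 10.02 and 9.80 in KO hippocampus, against 9.66, 9.66, 9.82 and 9.40 in WT, where the WT replicate 3 value fell just inside the KO range. In cortex, *H3f3a* read 11.39, 11.16, 11.21 and 11.05 in KO, against 11.25, 11.34, 11.19 and 11.30 in WT, *H3f3b* read 12.47, 12.40, 12.29 and 12.52, against 12.53, 12.37, 12.40 and 12.72, and *H2az1* read 11.98, 11.58, 11.85 and 11.71, against 11.88, 12.12, 11.81 and 11.87. All 3 genes overlapped between the groups there.

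With any 1 array left out, 22 to 26 of 35 members were higher in KO cerebellum. Choroid plexus markers were higher in KO cerebellum in 7 of 8 tested cases, with a summed level of 15.28, 15.16, 15.65 and 15.79 on the KO arrays, against 14.55, 14.95 and 14.23 on the WT arrays, so the groups did not overlap in this level. With that level as a covariate, 18 of 35 members were higher and 0 lower, against 523 and 101 of all 9449 genes. The member median was 0.59, and *H2bc4* and *H4c8* differed by 1.22 and 1.19 (adjusted p = 0.00123 and 0.00366 from limma). As the level does not overlap between the groups, this fit cannot tell its part from that of genotype. *H3f3b* differed by -0.63 in that fit (SE 0.26, limma adjusted p = 0.155). Markers of blood were higher in 2 of 3 cases, of microglia in 3 of 7, of meninges in 3 of 7 and of astrocytes in 1 of 7 (*Gfap*, at 0.70). Of 5 neuronal markers, *Slc17a7* (0.91) and *Rbfox3* (0.56) were higher while *Syt1* (-0.55) and *Map2* (-0.54) were lower. Of 5 endothelial markers 2 were higher and 1 was lower, and of 7 markers of the cerebellum itself 2 were higher and 2 were lower, *En2* at -0.54 and *Cbln1* at -0.40. No oligodendrocyte marker passed. The part of these cell types in the result was not tested.

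**Figure D3:**
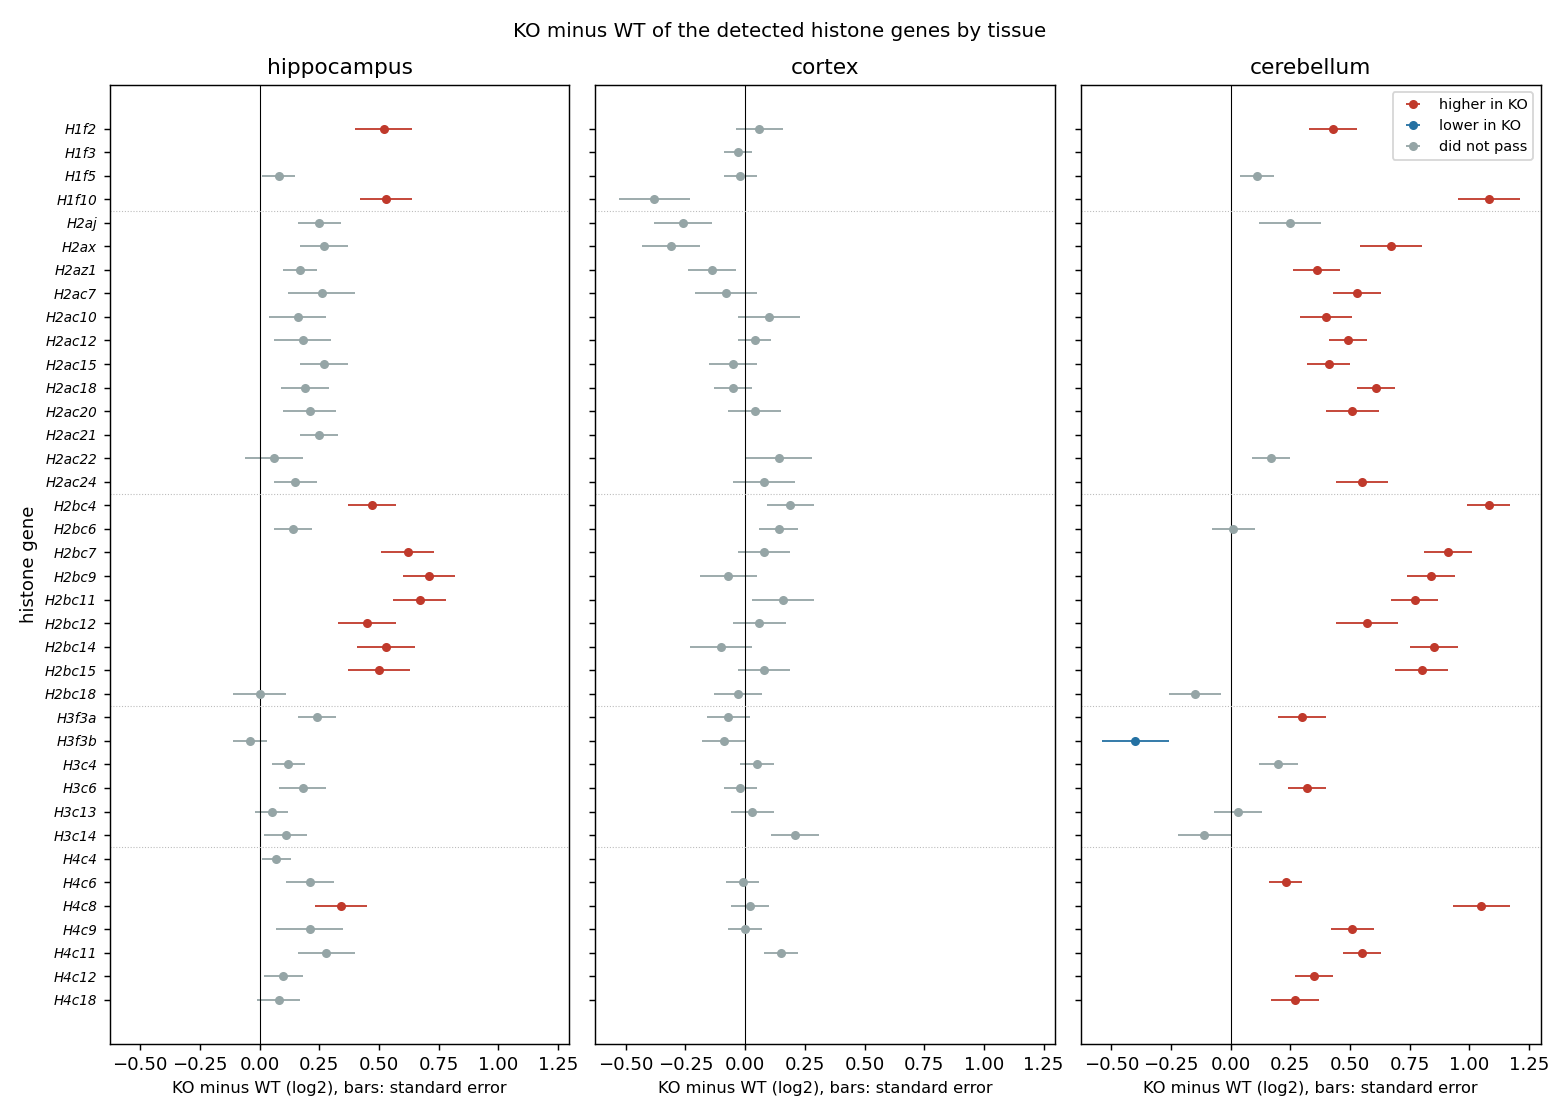
KO minus WT (horizontal axis, log2, bars for the standard error) of the 38 histone genes detected in at least 1 tissue, by tissue, ordered by family, with colours for members that passed at an adjusted p under 0.05. The 10 members that passed in hippocampus include 7 H2B genes, none passed in cortex, and 27 passed in cerebellum, of which *H3f3b* was lower.

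Several H2A and H2B genes of chromosome 13 are transcribed away from each other from a shared intergenic stretch. In the promoter table, 6 pairs of members had starts on opposite strands within 500 bases, each an H2A with an H2B gene, 164 to 281 bases apart. Both genes were tested for 3 of these pairs. In hippocampus the H2B gene was higher in all 3 and the H2A gene passed in none: *H2bc7* differed by 0.62 and *H2ac7*, 174 bases away, by 0.26. *H2bc15* differed by 0.50 and *H2ac15* by 0.27, with 164 bases between their starts, and *H2bc12* by 0.45 and *H2ac12* by 0.18, with 178 bases. In cerebellum both genes of each pair were higher, at 0.91 and 0.53, 0.80 and 0.41, and 0.57 and 0.49 for the H2B and the H2A gene. In cortex neither passed, at 0.08 and -0.08, 0.08 and -0.05, and 0.06 and 0.04. The difference between the genes of a pair was not tested. The H2A genes lay nearer the array floor: mean bead signal in WT hippocampus was 289.6 for *H2ac7*, 284.5 for *H2ac15* and 266.4 for *H2ac12*. Their H2B partners read 1174, 617 and 512.3. No background was subtracted from these signals, so the sizes of the differences within a pair cannot be compared. Of the other pairs, *H2bc11* was higher in hippocampus and cerebellum while *H2ac11* was below detection, and both genes were below detection for *H2bc8* with *H2ac8* and *H2bc1* with *H2ac1*.

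**Figure D4:**
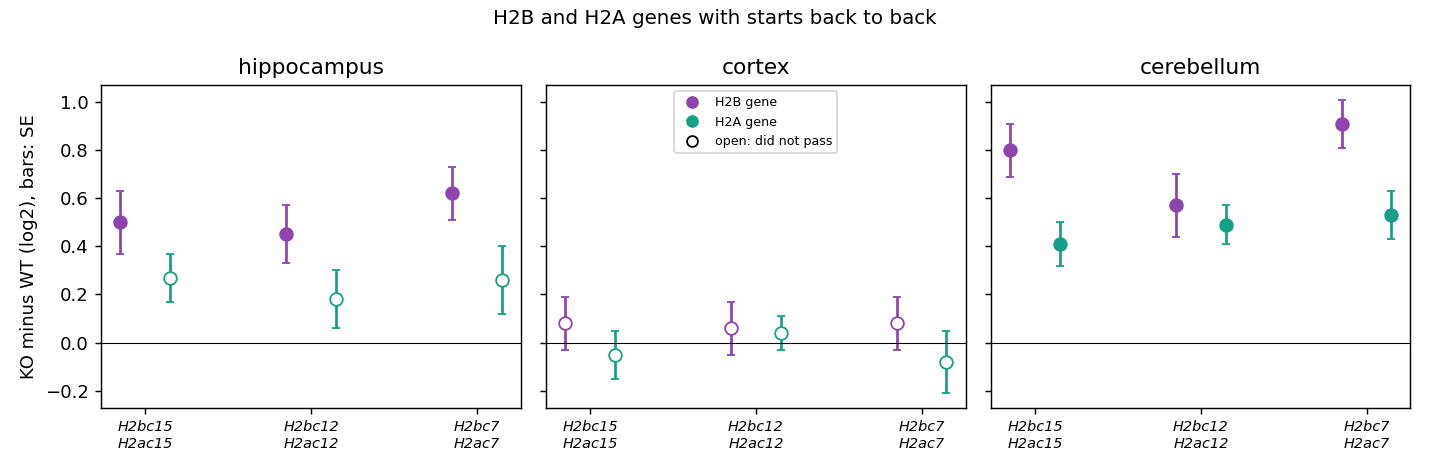
KO minus WT (vertical axis, log2, bars for the standard error) of the H2B gene (left point) and the H2A gene (right point) of 3 pairs with divergent starts, by tissue, with filled points for genes that passed. The H2B point lies above the H2A point in every pair and tissue, and the H2A genes passed only in cerebellum. The H2A signals were weaker and no background was subtracted, so sizes within a pair cannot be compared.

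The KO effect was compared between tissues in a fit over all 23 arrays, for the 33 members detected everywhere. Between hippocampus and cortex, 3 members had a higher effect in hippocampus, against 1.89% of all 8954 genes higher and 1.7% lower, and no member was lower. These were *H1f10* at 0.91 (SE 0.21, adjusted p = 0.0227), *H2bc9* at 0.78 (SE 0.16, adjusted p = 0.0186) and *H2bc14* at 0.62 (SE 0.17, adjusted p = 0.0423). The count was 0 when either KO mouse 2 or 3 or WT mouse 2 or 4 was left out, 7 without KO mouse 1 and 6 without WT mouse 3.

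Between hippocampus and cerebellum, *H4c8* at -0.71 and *H2bc4* at -0.61 had a lower effect in hippocampus (adjusted p = 0.017 and 0.0285 from limma), and no member had a higher one, against 1.09% lower and 0.659% higher of all genes. This count was 0 without KO mouse 4 or WT mouse 3 or 4, and 1 without KO mouse 1 or 2.

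Between cortex and cerebellum, 22 of 33 members had a lower effect in cortex and none a higher one, against 18.4% lower and 15.2% higher of all genes. The widest gaps were *H1f10* at -1.46, *H4c8* at -1.03, *H2ax* at -0.98, *H2bc14* at -0.95 and *H2bc9* at -0.91. The count was 14 to 20 with any 1 mouse left out, and 14 without KO mouse 2 or WT mouse 3. Without WT mouse 1, 2 members had a higher effect in cortex.

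The tissues were also compared among WT mice alone. In WT cerebellum against WT hippocampus, 5 of 33 members were higher and 12 lower, against 28.1% and 25.7% of all genes. The 5 higher members were *H3f3b* by 1.27, *H3c14* by 0.77, *H3c13* by 0.62, *H1f2* by 0.51 and *H3f3a* by 0.40. The 12 lower ones were *H1f10* at -1.08, *H2ac10* at -0.70, *H2ac24* at -0.69, *H2ac20* at -0.64, *H2ac22* at -0.63, *H2bc4* at -0.47, *H2ax* and *H2ac12* at -0.44, *H2ac15* at -0.40, *H2ac7* at -0.37, *H2ac18* at -0.28 and *H2bc6* at -0.22. Of the members that passed, all 4 H3 genes were higher and all 9 H2A genes were lower, each by its probe of highest mean. A second, weaker *H3c14* probe was not higher, with WT means of 7.56 in cerebellum and 7.73 in hippocampus.

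In WT cerebellum against WT cortex, 8 members were higher and 8 lower, against 27.4% and 23.8% of all genes. *H3f3b* was higher by 1.58, *H3c14* by 1.32, *H3c13* by 1.05, *H1f2* by 0.89 and *H3f3a* by 0.70, and *H1f10* was lower, at -1.14. The weaker *H3c14* probe had WT means of 7.56 in cerebellum and 7.59 in cortex. In WT hippocampus against WT cortex, 11 members were higher and 0 lower, against 12.7% and 11.6% of all genes. *H2bc4* and *H3c14* led, both at 0.55, followed by *H3c13* at 0.44 and *H1f2* and *H2bc15* at 0.37. The count of 11 was 7 without WT mouse 1, and the 8 lower in cerebellum than cortex were 5 without WT mouse 3. These 3 comparisons share their WT arrays.

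Among genes that act with histones, few passed in hippocampus and none in cortex. These counts stand against the shares of all genes, which were 7.19% higher and 4.59% lower in hippocampus and, in cerebellum, 20.2% higher and 16.6% lower, and the cerebellar counts of chaperones and of S phase genes lie below those shares in both directions. Of histone chaperones, which carry histones to and from DNA, 0 of 17 tested were higher and 1 was lower in KO hippocampus, *Asf1a* at -0.46. None of 17 passed in cortex, and in cerebellum 1 was higher (*Vps72*, at 0.36) and 2 were lower, *Atrx* at -0.46 and *Asf1a* at -0.33. Of genes for histone mRNA transcription and 3′ end processing, 2 of 15 were higher in KO hippocampus, *Snrpg* at 0.51 and *Snrpd3* at 0.37, both Sm proteins also used in splicing. None of 14 passed in cortex. In cerebellum 5 of 15 were higher, led by *Snrpg* at 0.98, *Snrpd3* at 0.81 and *Snrpb* at 0.51, and 2 were lower, among them *Tut7*, a uridylyl transferase, at -0.47.

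Of proliferation and S phase genes, 13 were tested in hippocampus, where *E2f1* alone passed (0.35), and 12 in cortex, where none passed. In cerebellum 2 of 14 were higher, *Pcna* at 0.31 and *Tyms* at 0.20, and 2 were lower, *Mcm4* at -0.27 and *Ccne2* at -0.36. Of genes that mark dividing cells, *Top2a* and *Cdk1* were below detection in every tissue. *Plk1* was detected and tested in each tissue and did not pass, at -0.11 in hippocampus and 0.02 in both cortex and cerebellum. Of the HMG nucleosome-binding proteins, none of 5 passed in hippocampus or cortex, and *Hmgn1* and *Hmgb2* were higher in cerebellum, both at 0.29. Histone genes outside the name pattern gave 0 of 4 in hippocampus, 0 of 3 in cortex and 2 of 4 higher in cerebellum, the H2B gene *H2bu2* at 0.67 and *Macroh2a1*, for macroH2A1, at 0.41.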

How the data were processed

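Total RNA of each sample was amplified from an oligo-dT primer, labelled with biotin and put on its own Illumina mouse Ref8 v2 array. The authors deposited the bead signal intensity of 25697 probes, read in GenomeStudio, whose lowest value was 103.7. The authors also deposited a detection p-value per probe and Z scores of the log intensity. Z scores computed here from log2 intensity came within 9.96e-05 of the deposited ones. The platform annotation named 1 gene symbol for 23978 probes and none for 1719, and the RefSeq gene table held 23962 of the Entrez IDs. Symbols as given and as updated led to the same 60 members.

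Log2 intensity was Z normalized in each array, rescaled by the average array SD (1.57) and printed with 8.43 added, which is the mean log2 intensity. A probe was tested in a tissue where at least 3 arrays detected it at p under 0.05, and each gene was represented by its tested probe of highest mean. KO was set against WT per tissue with limma 3.58.1 in R 4.3.3 (lmFit, then eBayes with a trend), and p was adjusted by Benjamini-Hochberg over all genes tested. Contrasts between tissues used 1 fit of the 23 arrays, in which mice entered through duplicateCorrelation (0.00178). Groups, replicates and mice came from the labels, and each replicate is a separate mouse. Arrays have no read depth, so their number limits the precision. Promoters came from RefSeq (GRCm38.p6).

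Members and gene lists were chosen with earlier results of these data known. Every detected member is named with its difference. Values on every array are given for the 10 members with the smallest adjusted p and for the replication-independent variants, 15 genes in all, and those of *H1f2* and *H2bc12* in hippocampus were added after they were seen. From each other list, at most 3 genes that passed are named per tissue. The alternatives were quantile normalization, neqc (offset 16), the deposited Z scores, omission of the detection filter, a strict filter (p under 0.01 on every array), averaged probes, an unmoderated test, a block for the replicate number, omission of the mouse block, a fit of all 6 groups, and omission of each array or mouse. A covariate for choroid plexus markers, and counts of the members detected on at least 2 arrays of each group, were added after the data were seen. The fit was tested on simulated data with 200 altered genes, and it found 86% of log2 differences of 0.5 in hippocampus (9834 genes), 76% in the cortex data (9720) and 72% in the cerebellum data (9449). The adjusted p depends on how many genes change. In the real data 11 genes were higher and 9 lower in cortex, and far more than 200 passed in hippocampus and cerebellum. These shares therefore need not hold for the real comparisons.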

Additional observations from a re-analysis of the deposited data

Results flagged for a closer look

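In 3 of the 75 groups of 4 arrays examined, an array lay apart from the other 3 of its group, where chance gives about 1 in 20. *H2bc9* read 9.72 on the WT cortex array of replicate 2, against 9.43 to 9.46 on the others. *H4c11* read 8.26 on the KO cerebellum array of replicate 3, against 8.38 to 8.40. *H3f3a* read 11.80 on the WT hippocampus array of replicate 2, against 11.48 to 11.53.

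The KO effect differed between cortex and cerebellum by the interaction test in 22 members, each with the lower effect in cortex. The differences were -1.46 for *H1f10*, -1.03 for *H4c8*, -0.98 for *H2ax*, -0.95 for *H2bc14*, -0.91 for *H2bc9*, -0.88 for *H2bc4*, -0.83 for *H2bc7*, -0.71 for *H2bc15*, -0.66 for *H2ac18*, -0.61 for *H2bc11* and *H2ac7*, -0.51 for *H2aj*, *H4c9* and *H2bc12*, and -0.50 for *H2az1*. They were -0.47 for *H2ac15*, *H2ac20* and *H2ac24*, -0.45 for *H2ac12*, -0.39 for *H4c11*, -0.37 for *H3f3a* and -0.34 for *H3c6*. *H2aj* is among these although it passed in neither tissue alone (-0.26 in cortex and 0.25 in cerebellum).

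The same test gave -0.71 for *H4c8* and -0.61 for *H2bc4* between hippocampus and cerebellum, and 0.91 for *H1f10*, 0.78 for *H2bc9* and 0.62 for *H2bc14* between hippocampus and cortex.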

How the results depend on the processing

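The count of higher members in KO cerebellum stayed within 1.5 times of 26 under every alternative run, and the counts in cortex stayed at 0. The unmoderated test called 0 members higher in KO hippocampus, 0 lower in KO cerebellum, 0 for the KO effect in hippocampus minus cortex and 0 for hippocampus minus cerebellum. The choroid plexus covariate, added after the data were seen, left 0 higher members in hippocampus and 0 lower in cerebellum, where *H3f3b* differed by -0.63 (SE 0.26) in place of -0.40 (SE 0.14). For the KO effect in hippocampus minus cerebellum, 1 member was lower with neqc, 1 without the detection filter and 1 with the strict filter, in place of 2. For hippocampus minus cortex, 6 were higher with the strict filter, in place of 3. Without the detection filter, 1 member was lower in WT hippocampus than in WT cortex, in place of 0. The cause was not tested. Under neqc the median member difference in cerebellum was 0.70, in place of 0.43.

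With 1 array or mouse left out, the counts ran from 4 to 13 (KO hippocampus, higher), 22 to 26 (KO cerebellum, higher), 0 to 1 (KO cerebellum, lower), 0 to 7 (hippocampus minus cortex, higher), 0 to 3 (hippocampus minus cerebellum, lower), 14 to 20 and 0 to 2 (cortex minus cerebellum, lower and higher), 5 to 9 (lower in WT cerebellum than in WT cortex) and 7 to 13 (higher in WT hippocampus than in WT cortex). No member that passed changed sign under any alternative.

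Over all genes, 707 were higher and 451 lower in KO hippocampus, against 6 and 9 by the unmoderated test, 33 and 34 with the covariate, 204 and 134 without WT replicate 4, 268 and 144 without KO replicate 3, and 505 and 272 without WT replicate 1. In KO cerebellum 1906 were higher and 1570 lower, against 1110 and 926 by the unmoderated test and 523 and 101 with the covariate. In KO cortex 11 were higher and 9 lower, with 2 to 21 higher and 1 to 17 lower over all alternatives.

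Replicate numbers do not pair KO with WT mice, and deviations of same-numbered arrays from their group means correlated at -0.35 to 0.30. With the number as a replicate block, 12 members were higher in KO hippocampus and 0 lower, 0 passed in cortex, and 26 were higher and 1 lower in KO cerebellum.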
